A study of Mus musculus with 20 samples.

Results

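Interferon-induced genes were followed in the ageing retina of mice that lack Nrl. The set holds 9 genes picked by name: the type I interferon targets Ifit1, Ifit3, Oasl2 and Bst2, the transcription factor subunits Stat2 and Irf9, and the type II interferon targets Igtp, Gbp3 and Irgm1. They make up 9 of the 15781 genes that the platform annotation names, and 84 of 179496 probe sets with 1 gene symbol. All 9 passed the filter on dim genes, which left out the lowest 25% of genes by mean level (log2 under 5.61). At the probe set level 69 of the 84 were bright enough to be tested. Genes were named with earlier results of these data known.

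Retinas came from Nrl-/- mice of strain C57Bl/6J at 1, 2, 4, 6 and 10 months of age, with 4 mice per age and the pooled pair of retinas of each mouse as 1 sample. Every mouse carried the knockout, so no group shows the level without it, and effects of the missing gene and of age itself cannot be told apart. Levels are log2 intensities from exon arrays, 1 array per mouse, and a gene's level summarises its probe sets. A mean is given with its SD over 4 mice, and a difference between ages with its standard error (SE). RNA was measured in the retina as a whole, and fewer cells of a type and less RNA per cell cannot be told apart.

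Nrl encodes the transcription factor that sets rod fate, and without it the photoreceptors become cone-like. The knocked-out gene itself read between 5.97 and 6.53 on the 20 arrays, which does not check the genotype, since the position of its 6 probe sets relative to the deletion is not given in the sources used here. All 8 cone genes on the list of retina markers were bright enough to be tested. The array of 4 months replicate 4 correlated least with the others, at a mean of 0.961 where the others had 0.970 to 0.981. The Y-linked gene Eif2s3y was low (3.80 to 4.35) on all 2 month arrays and on replicates 2 and 3 of 10 months, and high (7.43 to 8.85) on all the rest. The labels give no sex, so at 2 months age and Y-linked level cannot be told apart.

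Interferons are cytokines of antiviral defence and inflammation. Type I interferons bind the receptor of Ifnar1 and Ifnar2, which acts through the kinases Jak1 and Tyk2 on Stat2. Stat2 and Irf9 are subunits of ISGF3, the complex that switches on genes with an interferon-stimulated response element (ISRE) in their promoters. Type II interferon, the product of Ifng, binds Ifngr1 and Ifngr2 and acts at gamma-activated sites (GAS) and through Irf1, which also binds ISRE-like sequence. The target genes of both types overlap, and the division used here follows the interferon each gene is best known for. In the retina microglia, Muller glia and blood vessel cells can all respond to interferon.

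Promoters of the 9 genes were read from RefSeq (GRCm38.p6), from 250 bases before to 50 bases after each transcription start, and all 9 genes had an entry. Stretches that hold a motif are printed 5′ to 3′ on the gene's strand with the matching letters in capitals, because they show what the type I and type II targets share. The ISRE core was searched as GAAANNGAAA on both strands, where the reverse strand reads TTTCNNTTTC, and the GAS core as TTCNNNGAA, which reads the same on both strands.
Ifit1, chr19:34640755-34640843, plus strand: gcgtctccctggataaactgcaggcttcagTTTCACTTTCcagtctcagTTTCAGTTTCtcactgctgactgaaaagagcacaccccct
Ifit3, chr19:34583343-34583446, plus strand: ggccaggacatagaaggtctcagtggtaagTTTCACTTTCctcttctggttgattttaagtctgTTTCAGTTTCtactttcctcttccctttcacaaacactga
Bst2, chr8:71537557-71537638, minus strand: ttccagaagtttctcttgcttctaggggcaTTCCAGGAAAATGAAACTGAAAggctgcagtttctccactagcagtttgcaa
Stat2, chr10:128270248-128270315, plus strand: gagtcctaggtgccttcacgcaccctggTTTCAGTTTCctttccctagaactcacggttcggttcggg
Igtp, chr11:58199481-58199555, plus strand: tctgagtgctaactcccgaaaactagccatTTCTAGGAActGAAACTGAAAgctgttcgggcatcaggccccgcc
Gbp3, chr3:142559969-142560043, plus strand: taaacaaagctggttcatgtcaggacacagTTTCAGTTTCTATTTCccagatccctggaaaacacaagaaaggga
Irgm1, chr11:48871421-48871480, minus strand: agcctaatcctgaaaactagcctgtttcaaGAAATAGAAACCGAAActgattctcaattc

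The ISRE core was found in the promoters of 7 of the 9 genes, among them all 3 type II targets. Counted by promoter, 7 of the 11 of these genes held it. Of all 32851 promoters of the same length, 3.44% held it. Ifit1 and Ifit3 each held 2 copies, and in both genes the first reads TTTCACTTTC and the second TTTCAGTTTC. In Ifit1 they lie at -104 to -95 and -85 to -76 from the start, and in Ifit3 at -156 to -147 and -122 to -113. Bst2, Gbp3 and Irgm1 held 2 copies that overlap each other, and the other start listed for Gbp3 held neither motif. Stat2 and Igtp held 1 copy each. The GAS core was found in Igtp (-45 to -37) and in Bst2 (-136 to -128), where it overlaps an ISRE match, and in 8.30% of all promoters. A match is a description of letters and not a binding site. In Oasl2 and Irf9 neither motif was found, which says only that these letters are not in that window.

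Oasl2 rose early and was back near its first level at 10 months. It encodes a protein of the 2′-5′-oligoadenylate synthetase-like family, which is induced by interferon. At 1 month its log2 levels were 7.94, 7.48, 7.81 and 7.70, at 2 months 8.14, 8.30, 8.47 and 8.41, and at 4 months 8.43, 8.49, 8.26 and 8.73. At 6 months they were 8.27, 8.16, 8.25 and 8.15, and at 10 months 7.97, 7.67, 7.77 and 7.97. Every array of 2, 4 and 6 months lay above every array of 1 month, and the 10 month arrays overlapped with those of 1 month. Against 1 month the log2 difference was 0.60 ± 0.11 (SE) at 2 months (limma adjusted p = 0.00166), 0.75 ± 0.11 at 4 months (0.000139), 0.47 ± 0.11 at 6 months (0.00472) and 0.11 ± 0.11 at 10 months (0.413). The level at 4 months was 1.68 times that at 1 month. From 4 to 10 months it fell by 0.63 (SE 0.11, limma adjusted p = 0.000335), with the groups apart. The rises at 2, 4 and 6 months and the fall from 4 to 10 months were called under every alternative that tested them. The step from 6 to 10 months (-0.36 ± 0.11, limma adjusted p = 0.0209) was not called when replicate 1 or 3 of 6 months, or 2 or 3 of 10 months, was omitted, with adjusted p between 0.0523 and 0.0702. Nor was this step called with the brightest probe set (-0.27, limma adjusted p = 0.17) or without the 10 month arrays low in Y-linked genes (-0.23, 0.245).

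Among the 13 probe sets of Oasl2, 11 were tested and 7 rose at 4 months, where 1.91% of all tested probe sets did. The log2 differences at 4 months ran from -0.29 to 1.70 over the 13, with a median of 0.69 and 12 of them above 0. Both ends of that range belong to probe sets too dim to be tested. At 2 months 5 of the probe sets rose (0.537% of all) and at 6 months 4 (2.23%), and at 10 months none passed the test in either direction.

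Ifit1 had the largest rise of the 9 genes. Its protein binds viral RNA that lacks the host's cap marks and is among the first made in a type I response. It rested on 1 probe set. The log2 levels at 1 month were 6.43, 4.18, 5.11 and 5.74, a spread of 0.96 (SD, n = 4) around a mean of 5.37, which lies under the limit for dim genes. At 2 months they were 6.46, 7.04, 6.96 and 7.19, at 4 months 7.17, 7.11, 6.39 and 6.88, and at 6 months 6.74, 6.58, 6.89 and 6.63. At 10 months 3 arrays read 6.77, 6.53 and 6.72, and replicate 2 read 5.14. The groups of 2 and 6 months lay above all of 1 month, while at 4 months replicate 3 lay just below the highest array of 1 month. The log2 differences from 1 month were 1.55 ± 0.38 (SE) at 2 months, 1.52 ± 0.38 at 4 months and 1.34 ± 0.38 at 6 months, with limma adjusted p of 0.0151, 0.0104 and 0.0204. In rank these stood 2, 4 and 7 from the top among 11836 tested genes. At 10 months the difference was 0.92 ± 0.38 and did not pass (limma adjusted p = 0.0592).

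The results of Ifit1 at 2, 6 and 10 months depended on single arrays. At 2 months the gene was not called once replicate 2 of 1 month was omitted (1.15, limma adjusted p = 0.0568), nor once replicate 4 of 2 months was (1.45, 0.0554). At 4 months the call held with each array of either age omitted in turn. A fit of only the 8 arrays of both ages did not call it (limma adjusted p = 0.0578). At 6 months it was not called on omitting replicate 2 or 3 of 1 month, or 3 of 6 months, with differences of 0.94 to 1.28 and adjusted p between 0.0577 and 0.078. At 10 months the gene was called without replicate 1 of 1 month (1.28, limma adjusted p = 0.0091) or without replicate 2 of 10 months (1.30, adjusted p = 0.00589).

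**Figure D1:**
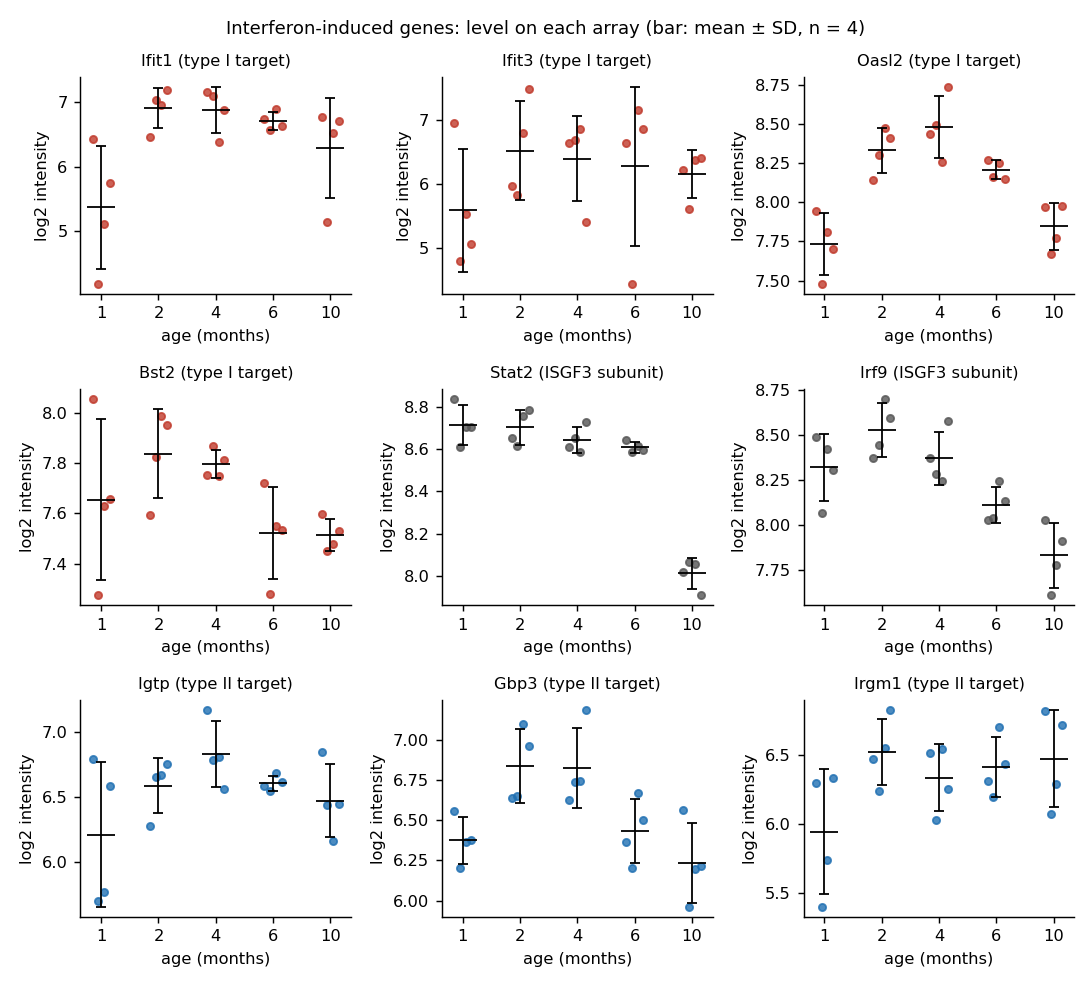
Log2 intensity (y axis) of each of the 9 genes on each array by age in months (x axis, not to scale). Points are single mice, and bars show the mean ± SD of 4. Stat2 stands apart at 10 months, between 7.91 and 8.07, where all other arrays lie between 8.58 and 8.84.

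Ifit3 did not pass the test at any age. Like Ifit1, it rested on 1 probe set here. Its mean was 5.59 ± 0.96 (SD, n = 4) at 1 month and 6.52 ± 0.77, 6.40 ± 0.67, 6.27 ± 1.24 and 6.15 ± 0.37 at 2, 4, 6 and 10 months. The difference at 2 months was 0.93 ± 0.54 (SE, limma adjusted p = 0.34). Replicate 1 of 1 month read 6.95, above all arrays of 4 and 10 months, and replicate 2 of 6 months read 4.44, the lowest of the 20. The groups of every pair of ages overlapped.

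Bst2 encodes tetherin, which holds budding virus particles at the cell surface. No comparison called it. From 7.65 ± 0.32 (SD, n = 4) at 1 month its means went to 7.84 ± 0.18 at 2 months, 7.79 ± 0.06 at 4 months, 7.52 ± 0.18 at 6 months and 7.51 ± 0.06 at 10 months. Between 4 and 10 months it differed by -0.28 ± 0.12 (SE, limma adjusted p = 0.116), with the groups apart. At 1 month its arrays spanned 7.27 to 8.06, a range that held every array of the other ages. None of its 4 tested probe sets passed at 2, 4, 6 or 10 months against 1 month.

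Stat2 fell late and sharply. It is the ISGF3 subunit that carries the activation domain. At 1 month its levels were 8.84, 8.61, 8.70 and 8.70, and at 6 months they were still 8.64, 8.58, 8.61 and 8.59. At 10 months they were 8.02, 8.07, 8.06 and 7.91. All 4 arrays of 10 months lay below those of every other age. The log2 difference was -0.70 ± 0.06 (SE) from 1 to 10 months (limma adjusted p = 3.09e-08) and -0.60 ± 0.06 from 6 to 10 months (1.1e-06), so the level at 10 months was 0.615 times that at 1 month. At 2, 4 and 6 months it differed from 1 month by -0.01, -0.07 and -0.11 and did not pass.

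The fall of Stat2 ran over nearly the whole gene. All 26 probe sets were lower at 10 months than at 1 month, and 23 passed the test, where 13% of all tested probe sets were called lower. Their log2 differences ran from -1.14 to -0.21 with a median of -0.70. A summary by the brightest probe set alone gave -0.28 with a limma adjusted p of 0.0548, which did not pass. From 6 to 10 months it gave -0.29 (limma adjusted p = 0.103), and over the 5 ages its F test did not pass (0.0908). At 2, 4 and 6 months none of the 26 passed.

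Irf9, the DNA-binding subunit of ISGF3, declined from its highest mean at 2 months. Its levels at 1 month were 8.49, 8.07, 8.42 and 8.31, at 2 months 8.38, 8.45, 8.71 and 8.60, and at 4 months 8.38, 8.29, 8.25 and 8.58. They were 8.03, 8.04, 8.25 and 8.13 at 6 months and 8.03, 7.61, 7.78 and 7.91 at 10 months. Each array of 10 months lay below each of 1, 2 and 4 months. The difference was -0.49 ± 0.10 (SE) from 1 month (limma adjusted p = 0.00095) and -0.54 ± 0.10 from 4 months (0.00117), and both calls held under every alternative. From 1 to 6 months it was -0.21 ± 0.10 and did not pass (0.187). Of its 8 probe sets all were lower at 10 than at 1 month, by 0.15 to 0.65 on the log2 scale. Of these 5 passed the test, where 13% of all tested probe sets were called lower.

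**Figure D2:**
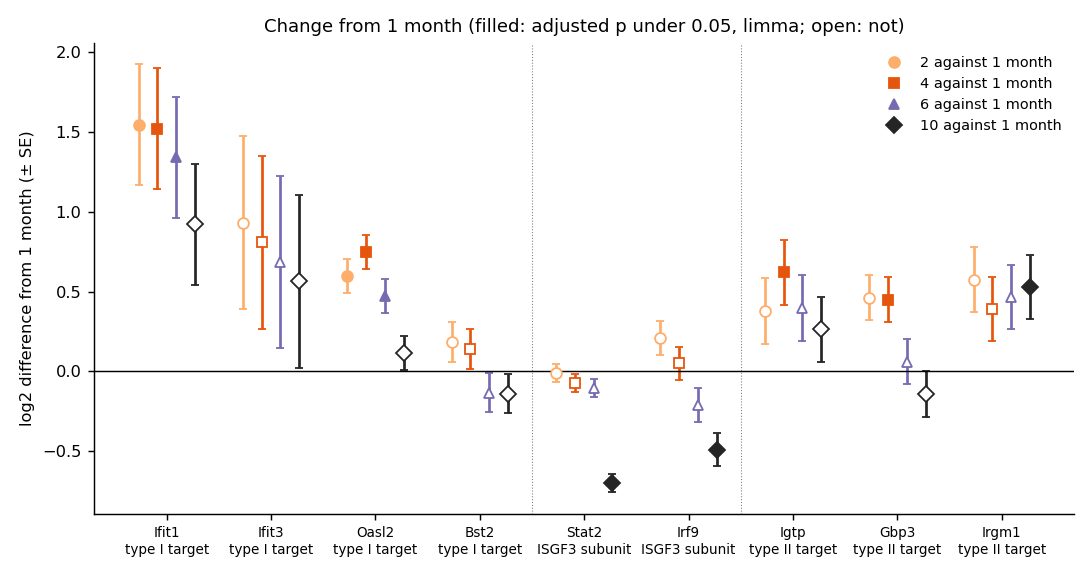
Log2 difference from 1 month (y axis, ± SE, n = 4 per age) of the 9 genes at 2, 4, 6 and 10 months. Filled symbols passed an adjusted p of 0.05 in limma. Ifit1 and Oasl2 are filled at 2, 4 and 6 months, Stat2 and Irf9 at 10 months below 0, Igtp and Gbp3 at 4 months, and Irgm1 at 10 months.

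Gbp3, the first of the type II targets, was higher at 4 months and back near its first level at 6 months (0.06 ± 0.14 (SE) from 1 month, limma adjusted p = 0.836). It encodes a guanylate-binding protein, a large GTPase that attacks the compartments of intracellular microbes. At 1 month it read 6.56, 6.20, 6.37 and 6.37, at 2 months 6.64, 6.65, 7.10 and 6.96, and at 4 months 6.63, 6.74, 6.75 and 7.19. At 6 months it read 6.36, 6.20, 6.67 and 6.50, and at 10 months 6.56, 5.96, 6.20 and 6.21. The groups of 2 and 4 months lay above all of 1 month, and those of 6 and 10 months overlapped with it. The difference was 0.46 ± 0.14 (SE) at 2 months (limma adjusted p = 0.0502) and 0.45 ± 0.14 at 4 months (0.0387). From 4 to 10 months it fell by 0.59 (SE 0.14, limma adjusted p = 0.00581), and without the 10 month arrays low in Y-linked genes the difference was -0.44 and did not pass (adjusted p = 0.0814), nor did it with the brightest probe set (-0.62, adjusted p = 0.134). The rise at 4 months was not called on omitting any of replicates 2, 3 and 4 of either age (0.33 to 0.48, adjusted p between 0.0562 and 0.118). Nor was it called with the brightest probe set (0.27), no filter on dim genes (0.06) or only the 8 arrays of both ages (limma adjusted p = 0.0597). At 2 months the gene was called without replicate 1 of 2 months (0.53, limma adjusted p = 0.0391). Over its 14 probe sets the difference at 4 months was above 0 in all, from 0.09 to 1.00, but none of the 8 tested passed.

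Igtp and Irgm1 encode immunity-related GTPases, which interferon gamma induces strongly. Igtp went from 6.21 ± 0.56 (SD, n = 4) at 1 month to 6.59 ± 0.21, 6.83 ± 0.25, 6.61 ± 0.06 and 6.47 ± 0.28 at 2, 4, 6 and 10 months. At 1 month 2 arrays read 5.70 and 5.77 and the others 6.58 and 6.79, so the groups overlapped at every later age. The rise at 4 months was 0.62 ± 0.20 (SE, limma adjusted p = 0.0474) but was not called on omitting replicate 2 or 3 of 1 month, or 1, 2 or 3 of 4 months, with differences of 0.45 to 0.64 and adjusted p between 0.0804 and 0.167. It also missed the threshold with no filter on dim genes (0.0723), the mean of probe sets (0.0554), quantile normalization (0.0558) or only the 8 arrays of both ages (limma adjusted p = 0.174). Without replicate 1 of 1 month Igtp was called at 6 months (0.59, limma adjusted p = 0.0495). All 7 of its probe sets were higher at 4 than at 1 month, by 0.07 to 1.61, and none of the 5 tested passed.

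Irgm1 was the gene of the 9 called higher at 10 months. Its mean was 5.94 ± 0.45 (SD, n = 4) at 1 month and 6.52 ± 0.24, 6.33 ± 0.24, 6.41 ± 0.22 and 6.47 ± 0.35 at the later ages. The 1 month arrays read 6.30, 5.40, 5.74 and 6.33, and those of 10 months 6.81, 6.07, 6.29 and 6.71, so the groups overlapped. The difference at 10 months was 0.53 ± 0.20 (SE, limma adjusted p = 0.0422). It was not called on omitting replicate 2 or 3 of 1 month, or 1 or 4 of 10 months, with differences of 0.35 to 0.46 and adjusted p between 0.104 and 0.166. It also missed the threshold with no filter on dim genes (0.0629), the mean of probe sets (0.0665), the brightest probe set (0.18), quantile normalization (0.0726) or only the 8 arrays of both ages (limma adjusted p = 0.0911). At 2 months the difference was 0.58 ± 0.20 and did not pass (0.0871), but it did without replicate 4 of 1 month (0.71, limma adjusted p = 0.0417). Of its 9 probe sets 8 were higher at 10 than at 1 month, and 1 of the 5 tested passed, where 9.61% of all tested probe sets did.

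Counted over the comparisons, 2 of the 9 genes rose at 2 months (3.3% of all 11836 tested genes rose), 4 at 4 months (6.9%) and 2 at 6 months (7.89%). None fell at these ages, where 5.22%, 8.26% and 8.52% of all genes did. At 10 months against 1 month 1 rose (20.6% of all genes) and 2 fell (20.8%). From 4 to 10 months Oasl2, Stat2, Irf9 and Gbp3 fell (11.7% of all genes fell), and none rose (10.2% of all genes). From 6 to 10 months Oasl2 and Stat2 fell (11.7% of all genes), and none rose (8.56%). None of the 9 was called from 2 to 4 months, where 0.127% of all genes were, or from 4 to 6 months, where limma called 0% of all genes and 4 of the 9 had an unadjusted p under 0.05 (Bst2, Gbp3, Irf9 and Oasl2, from 0.013 to 0.0386), as did 4.49% of all genes. Over all 5 ages the F test called Ifit1, Oasl2, Stat2, Irf9 and Gbp3, 5 of the 9, against 38.4% of all genes. The median difference of the 9 was 0.46, 0.45, 0.40 and 0.11 at 2, 4, 6 and 10 months against 1 month, where that of all tested genes was 0.01, 0.01, 0.01 and 0.04. Comparisons with 1 month share its 4 arrays.

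Groups that did not overlap were counted apart from the test. At 2 months Ifit1, Oasl2 and Gbp3 lay wholly above 1 month (7.5% of all genes did), at 4 months Oasl2 and Gbp3 (8.32%) and at 6 months Ifit1 and Oasl2 (11.2%). At 10 months Stat2 and Irf9 lay wholly below 1 month (17.9%). Bst2 and Irf9 lay lower at 6 than at 4 months (1.57%), Oasl2, Stat2 and Irf9 lower at 10 than at 6 months (12.1%), and Oasl2, Bst2, Stat2, Irf9 and Gbp3 lower at 10 than at 4 months (10.3%).

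Counts of called genes moved when 1 array was omitted. The count at 2 months was 1 when replicate 2 of 1 month or 4 of 2 months was omitted, that at 4 months was 2 without replicates 2 or 3 of 1 month or 2 or 3 of 4 months, and that at 6 months was 1 without replicates 2 or 3 of 1 month or 3 of 6 months. The count from 6 to 10 months was 1 without replicates 1 or 3 of 6 months or 2 or 3 of 10 months.

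**Figure D3:**
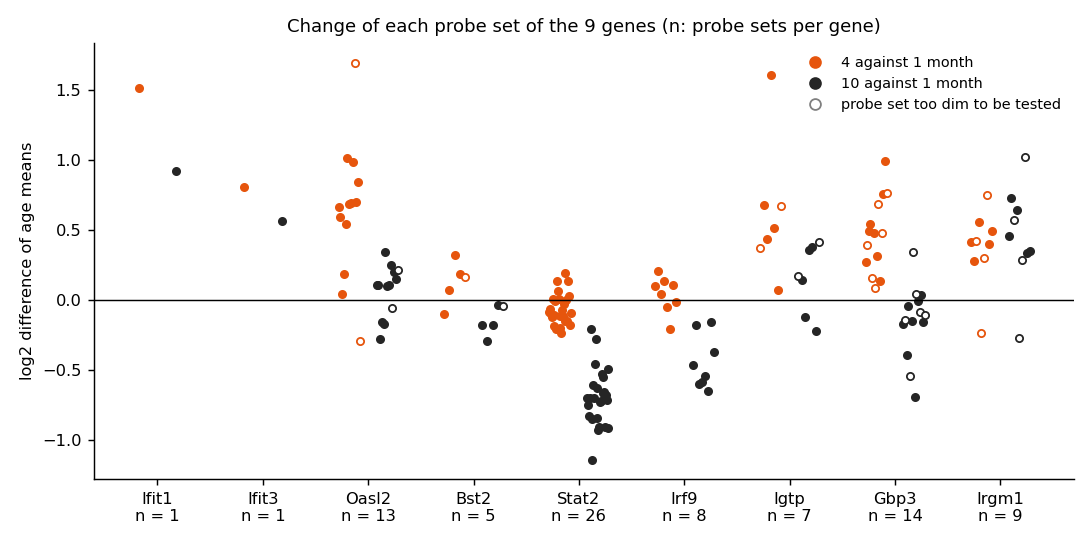
Log2 difference between age means (y axis) of each probe set of the 9 genes, at 4 against 1 month (orange) and 10 against 1 month (black). Open points were too dim to be tested. All 26 probe sets of Stat2 and all 8 of Irf9 lie below 0 at 10 months, and 12 of the 13 of Oasl2 lie above 0 at 4 months.

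Type I and type II targets were set side by side as means over their genes, which is a description without a test because the genes were chosen by name. Against 1 month the 4 type I targets were higher by 0.81, 0.80, 0.59 and 0.36 at 2, 4, 6 and 10 months, and the 3 type II targets by 0.47, 0.49, 0.31 and 0.22. The type I mean exceeded the type II mean by 0.32 at 4 months and 0.15 at 10 months, where this excess had an SD between arrays of 0.27 and 0.29. By medians over the genes the excess was 0.33 and 0.08. Within the type I targets, Ifit1 and Ifit3, each on 1 probe set and dim at 1 month, stood highest. They differed from 1 month by 1.52 and 0.81 at 4 months and by 0.92 and 0.56 at 10 months. Oasl2 and Bst2 differed by 0.75 and 0.14 at 4 months and by 0.11 and -0.14 at 10 months. Bst2 thus lay below the type II mean at both ages, and Oasl2 above it at 4 months and below it at 10 months. At 10 months the excess therefore came from Ifit1 and Ifit3 alone. Its size without Ifit1 and Ifit3 was not computed at either age. Both means were highest at 2 or 4 months and lower at 10 months. The 2 ISGF3 subunits differed from both, with means of 0.10, -0.01, -0.16 and -0.60. When Stat2 and Irf9 were counted with the type I targets the excess went from 0.32 to 0.04 at 4 months and from 0.15 to -0.17 at 10 months.

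**Figure D4:**
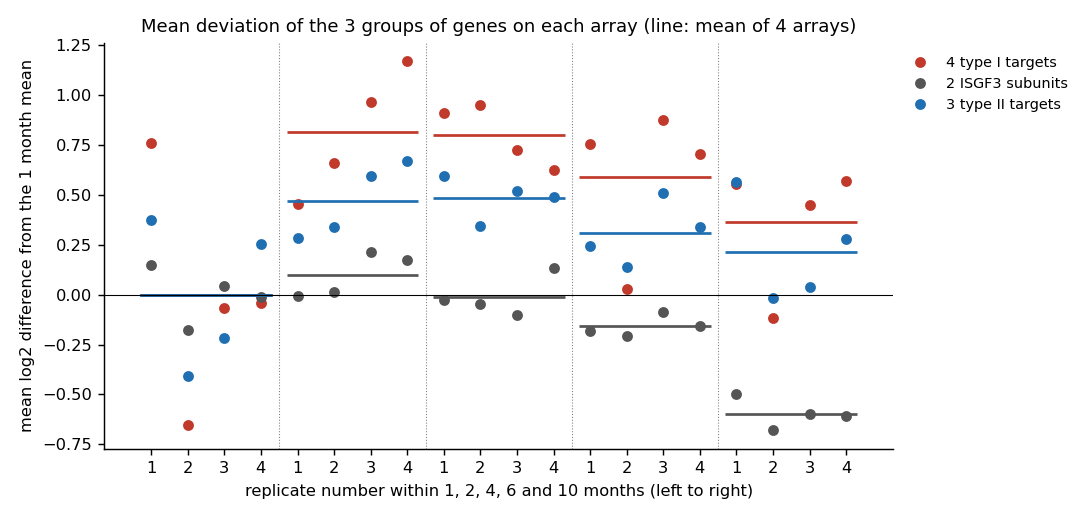
Mean log2 difference from the 1 month mean (y axis) of the 4 type I targets, the 2 ISGF3 subunits and the 3 type II targets on each array, with the replicate number within each age on the x axis. Lines are means of 4 arrays. Type I targets range from -0.65 to 0.76 within 1 month, and the ISGF3 subunits lie between -0.68 and -0.50 at 10 months.

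The 9 genes varied together between mice of 1 age. At 1 month replicate 2 was the lowest of its age in all 9 genes and replicate 1 the highest in 8. At 6 months replicate 2 was the lowest in 7 and replicate 3 the highest in 6, and at 10 months replicate 2 was the lowest in 7 and replicate 1 the highest in 6. At 4 months replicate 3 was the lowest in 5 but the highest in 2, and replicate 4 the lowest in 2 and the highest in 4. Relative to the 1 month mean, the type I targets stood at 0.76 in replicate 1 of 1 month and at -0.65 in replicate 2, and the type II targets at 0.37 and -0.41. These 2 mice of 1 age thus stood farther apart than the means of any pair of ages. Microglia genes, as a list mean, read 6.73 and 6.71 in the same replicates 1 and 2. The mean over 8 tested lens genes was 7.56 in replicate 2 of 1 month and 7.32 in replicate 2 of 6 months, the highest values of the 20 arrays, and 7.17 in replicate 1 and 7.31 in replicate 3 of 1 month. In replicate 2 of 10 months it was 6.62, where the arrays of that age ran from 6.47 to 6.67. The part of lens RNA in the low values was not tested.

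Other targets of type I interferon were called higher in part at 2 and 4 months. Of a list of 57, 24 were tested, 18 were too dim and 15 were not analysed here. At 2 months 5 rose (3.3% of all genes did), at 4 months 7 (6.9%), with medians of 0.22 and 0.27. None fell at either age, where 5.22% and 8.26% of all genes did. At 6 months 2 rose (7.89% of all genes), and at 10 months 3 rose (20.6%) and 1 fell (20.8%). Trim30a, a regulator of inflammatory signalling, rose by 0.83 ± 0.16 (SE) at 4 months (limma adjusted p = 0.00183) and stood at 0.28 ± 0.16 at 10 months (0.178). Ifi27 and Ifi35 rose by 0.39 and 0.35 at 4 months and by 0.41 and 0.51 at 10 months. Pml, the organiser of nuclear bodies, stood at -0.01 at 4 months and fell by 0.42 at 10 months. From 4 to 10 months 4 of the 24 fell (11.7% of all genes) and none rose (10.2%).

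Among other type II targets the count called higher was largest at 10 months, where 20.6% of all genes rose. Of a list of 39, 20 were tested, 11 were too dim and 8 were not analysed here. The numbers that rose were 3, 5, 3 and 8 at 2, 4, 6 and 10 months, with medians of 0.17, 0.24, 0.12 and 0.28, and 1 fell at 10 months. Over all genes 3.3%, 6.9%, 7.89% and 20.6% rose at these ages, and 20.8% fell at 10 months. Serping1, the complement C1 inhibitor, rose by 0.90 ± 0.12 (SE) at 4 months (limma adjusted p = 9.39e-05) and was at 0.29 ± 0.12 at 10 months (0.0681). Psmb8, a subunit of the immunoproteasome, rose by 0.55 at 4 and 0.40 at 10 months. Cd74, the invariant chain of MHC class II, rose by 0.44 and 0.58, and H2-Eb1, a class II beta chain, by 0.50 at 10 months (0.36 at 4 months, limma adjusted p = 0.123). The type I and type II lists were not tested against each other.

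**Figure D5:**
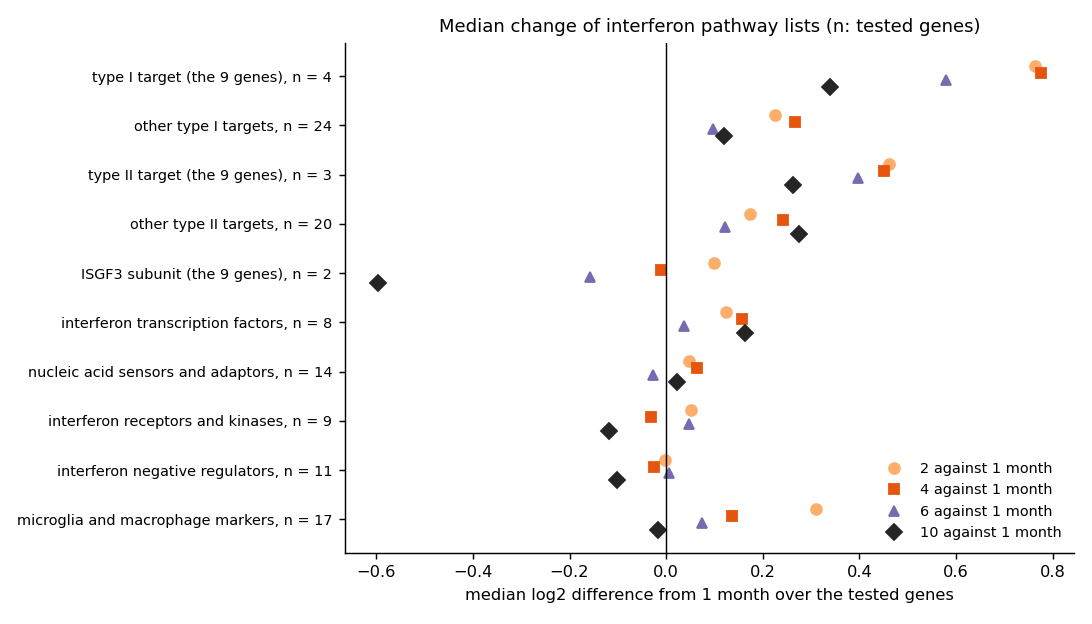
Median log2 difference from 1 month (x axis) over the tested genes of each list (y axis, n given), at 2, 4, 6 and 10 months. The ISGF3 subunits are at -0.60 at 10 months, while the medians of the other type I and type II targets are at 0.12 and 0.28 at that age.

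Of 21 interferon genes listed, 12 were not analysed here, 7 were too dim and 2 were tested. Neither of these was called in any of the 8 comparisons. Ifng differed from 1 month by 0.28 ± 0.15 (SE) at 4 months (limma adjusted p = 0.236) and Ifna2, with 1 probe set, by -0.19 ± 0.22 (0.609).

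Some components upstream of the targets were called lower at 10 months against 1 month, where 20.8% of all genes fell and 20.6% rose. Of the 9 receptor and kinase genes, none was called at 2 or 4 months. At 6 months 1 fell (8.52% of all genes), and at 10 months 3 fell and 1 rose. Tyk2, a kinase of the type I receptor, fell by 0.37 (SE 0.08, limma adjusted p = 0.00128), Ifngr2 by 0.31 and Ifnar1 by 0.23. For Ifngr2 and Ifnar1 the brightest probe set alone gave rises of 0.38 and 0.26 in place of falls (limma adjusted p = 0.0394 and 0.016). Ifnlr1, of the lambda interferon receptor, rose by 0.41. Of the transcription factors 8 of 9 were tested, 1 rose at 2 months (3.3% of all genes), and 1 fell at 6 (8.52%) and at 10 months. Irf3, which switches on the interferon beta gene, went from -0.26 ± 0.09 (SE) at 4 months (limma adjusted p = 0.0523) to -0.87 ± 0.09 at 10 months (4.25e-07). Irf7 (0.35 and 0.31 at 4 and 10 months), Irf8 (0.28 and 0.26) and Batf2 (0.29 and 0.18) did not pass.

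Of the sensors and adaptors that detect foreign or misplaced nucleic acid, 14 of 18 were tested. None was called at 2 months, 2 fell at 4 months (8.26% of all genes), and at 10 months 5 fell (20.8%) and 2 rose (20.6%). Mavs, the mitochondrial adaptor for viral RNA, fell by 0.51 (SE 0.08, limma adjusted p = 4.68e-05) at 10 months and was at -0.05 at 4 months. Trex1, a nuclease that clears cytosolic DNA, fell by 0.42 and 0.64 at 4 and 10 months. Ticam1, the adaptor of the RNA receptor Tlr3, rose by 0.34 at 10 months. Samhd1, which breaks down nucleotides, fell by 0.28 (0.01 higher by its brightest probe set). Of 11 negative regulators tested out of 13, 3 fell at 4 months (8.26% of all genes) and 3 at 10 months (20.8%). None rose at these ages, where 6.9% and 20.6% of all genes did. At 2 months Socs3 rose by 0.42 (limma adjusted p = 0.0474) and Ptpn1 fell by 0.32 (0.0225). Of all genes 3.3% rose and 5.22% fell at 2 months. Ptpn2, a phosphatase that acts on Jak and Stat proteins, stood at -0.32 ± 0.12 (SE) at 4 months (limma adjusted p = 0.0759) and fell by 0.65 at 10 months (0.000203). These falls stand beside 20.8% of all genes that fell at 10 months.

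Markers of other cells moved with some of these results, and their part in them was not tested. The mean over the 17 tested of 22 microglia and macrophage genes lay between 6.70 and 6.79 at 1 month, 7.01 and 7.14 at 2 months, 6.90 and 6.97 at 4 months, 6.73 and 6.89 at 6 months and 6.61 and 6.71 at 10 months. In that list 8 genes rose at 2 months (3.3% of all genes) and 5 at 4 months (6.9%), among them Ctss (0.55 ± 0.11 (SE) at 4 months). From 4 to 10 months 7 fell, where 11.7% of all genes did. The list was back at or below its 1 month level at 10 months, when Irgm1 and 8 of the other type II targets were higher. Ptprc, a gene of all white blood cells, was too dim to be tested. Of 22 T cell and NK cell genes 11 were tested, with a mean of 6.50 to 6.78 at 1 month, 6.64 to 7.15 at 4 months and 6.77 to 6.997 at 10 months. None of them was called at 2, 4 or 6 months, and 5 rose at 10 months, where 20.6% of all genes did, led by Cd8a (0.58 ± 0.11 (SE), limma adjusted p = 0.000369). Thy1 was among the 5 (0.22 ± 0.05 (SE), limma adjusted p = 0.000963). Whether these rises came from T or NK cells was not tested. Cd3e, a subunit of the T cell receptor complex, differed by 0.19 ± 0.19 (SE) at 10 months and did not pass (limma adjusted p = 0.449), nor did Cd2 (0.04) or Cd5 (0.11). Of the other defining genes, Cd3d, Cd3g, Cd4, Cd8b1, Gzma, Gzmb and Ncr1 were too dim to be tested.

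Cone genes were lower at the age at which Stat2 and Irf9 fell. The mean over the 8 cone genes lay between 12.06 and 12.20 at 1 month and between 11.75 and 11.84 at 10 months. At 10 months 5 of the 8 fell, where 20.8% of all genes did. Gngt2, a subunit of the cone transducin, fell by 0.67, Arr3, the cone arrestin, by 0.57, Opn1mw, the green cone opsin, by 0.46 and Cngb3, a cone channel subunit, by 0.43. Their part in the falls of Stat2 and Irf9 was not tested.

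Muller glia genes rose at all later ages, with 5, 10, 10 and 11 of 12 higher at 2, 4, 6 and 10 months. Over all genes 3.3%, 6.9%, 7.89% and 20.6% rose at these ages. The part of Muller glia in the levels of the 9 genes was not tested. Of 11 tested blood vessel genes 5 fell (8.26% of all genes) and 1 rose (6.9%) at 4 months. Of 8 tested dendritic and B cell genes, a list that holds Bst2 itself, none was called at 4 months. At 10 months 2 rose, where 20.6% of all genes did. Pigment epithelium genes had a median of 0.69 above 1 month at 10 months, with list means from 6.93 to 8.88 between the mice of that age. Lens genes had their highest age mean at 1 month (7.26), with a median difference of -0.40 at 4 months, and replicate 2 of 6 months lay above 3 of the 4 arrays of 1 month. Whether these tissues bear on the 9 genes was not tested.

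The Y-linked level and the 9 genes could be set side by side in part. Oasl2 had means of 8.33 and 8.48 at 2 months, where all arrays were low in Y-linked genes, and at 4 months, where all were high. Those of Ifit1 were 6.91 and 6.89 and those of Gbp3 6.84 and 6.83. At 10 months the 2 arrays low in Eif2s3y read 7.67 and 7.77 for Oasl2 and the other two 7.97 and 7.97, while for Stat2 they read 8.07 and 8.06 against 8.02 and 7.91. Without these 2 arrays Stat2, Irf9 and Oasl2 were still called lower at 10 than at 4 months, and Gbp3 was not. The fall of Oasl2 from 6 to 10 months was -0.23 in that fit, with an adjusted p of 0.245.

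Likeness was ranked among all other tested genes, with predicted genes (symbols of the Gm, Rik and LOC kind) skipped. The 5 most like the type I targets over the 20 arrays were Gbp2, H2-K1, Trim30a, Dtx3l and Sulf1. Their Pearson correlations with the standardised mean were 0.849, 0.848, 0.833, 0.812 and 0.799. The 5 most like the type II targets were Gbp2 (0.920), H2-K1 (0.878), Sulf1, Cxcl16 and Serpina3n (0.851 to 0.834). Within ages, after each age's mean was taken off, Gbp2 and H2-K1 stood at 0.731 and 0.680 with the type I targets and at 0.868 and 0.820 with the type II targets. These values describe likeness among genes that were picked for it, over arrays that share their mice and processing.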

How the data were processed

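RNA from the retinas of 20 mice was hybridised to exon arrays. The authors deposited log2 values for 194293 probe sets, made with RMA (background correction, normalization and probe summary) per the submitters' processing notes; the RMA version is not given in the sources used here. Platform annotation gave 1 symbol to 179496 probe sets, several to 1328 and none to 13469. Older symbols (2039) were updated through RefSeq (GRCm38.p6). Probe sets with 1 symbol were summarised per gene by median polish, which damps single probe sets. The lowest 25% of the 15781 genes by mean level over all arrays were left out, and 11836 were tested.

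All 20 arrays were fitted together with limma 3.58.1 in R 4.3.3, with age as the only term, 15 residual degrees of freedom and Benjamini-Hochberg adjustment over all tested genes. The threshold was an adjusted p of 0.05. Each sample was a separate mouse. Probe sets were fitted the same way. No counts exist, and the number of arrays limits the precision. The code was tested on simulated data. All 9 genes are named. Of each other list, up to 4 genes with the largest change at 4 or 10 months are named, called ones first. Socs3, some T cell genes and some dim genes are named besides these. Members and lists were chosen with earlier results of these data known. Alternatives covered the probe set summary, filter, normalization, array weights, variance prior, replicate block, arrays fitted and each array omitted. Leaving out the 10 month arrays low in Y-linked genes was chosen after seeing the data.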

Additional observations from a re-analysis of the deposited data

Results flagged for a closer look

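In 2 of 45 groups of 4 arrays, 1 array lay far from the other 3, where chance flags about 1 in 20 groups. Ifit1 read 5.14 in replicate 2 of 10 months, and the other 3 mice of that age read 6.53 to 6.77. Ifit3 read 5.41 in replicate 4 of 4 months, and the other 3 read 6.63 to 6.86. Both genes rest on 1 probe set. Replicate 2 of 10 months was also the lowest of its age in 7 of the 9 genes, and replicate 4 of 4 months was the array with the lowest mean correlation with the others. The part of either array in these values was not tested.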

How the results depend on the processing

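Of the 9 genes, 5 were called over the 5 ages, and 2, 4, 2 and 3 at 2, 4, 6 and 10 months against 1 month. With the brightest probe set per gene, 6 of the 9 were tested and these counts were 2, 1, 1, 1 and 1. The count from 6 to 10 months went from 2 to 1, as Oasl2 and Stat2 were no longer called and Irf9 was. Filtering the dimmest 50% of genes left 4 of the 9 to test, and gave 3 over the 5 ages and 1 each at 2, 4 and 6 months. Array weights gave 8 over the 5 ages, 6 at 2 months and 4 at 6 months. At 4 months the count was 2 with no filter and 1 with only the 8 arrays of both ages. Without the 10 month arrays low in Y-linked genes, 1 gene was called from 6 to 10 months. The excess of type I over type II targets at 10 months was -0.17 with the ISGF3 subunits counted in. The brightest probe set reversed Ifngr2 (0.38), Ifnar1 (0.26) and Samhd1 (0.0116) at 10 months and Cdh5 at 4 and 10 months (0.10 and 0.31). The cause of these shifts was not tested, beyond the fewer genes or arrays some of them use.

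With each array omitted in turn the counts ran from 5 to 7 over the 5 ages, 1 to 3 at 2 months, 2 to 4 at 4 months, 1 to 3 at 6 months, 2 to 4 at 10 months, 1 to 3 from 6 to 10 months and 4 to 4 from 4 to 10 months. They stayed at 0 from 2 to 4 and from 4 to 6 months. The excess of type I targets ran from 0.22 to 0.45 at 4 months and from 0.05 to 0.28 at 10 months.

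Among same-numbered arrays of different ages, 10 of 40 pairs correlated over 0.1 once age means were taken off. These correlations ran from -0.574 to 0.563 with a median of -0.03, and pairs of other numbers had a median of -0.004. Whether the numbers mark a shared batch was not tested. With the replicate block the count was 4 at 2 months, 3 at 4 months, 3 at 6 months and 4 at 10 months. Dim signal limits Ifit1 and Ifit3, whose means at 1 month lie under the filter's limit.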

Other observations

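A further probe set is annotated to both Ifit3 and its close relative Ifit3b (I830012O16Rik in the annotation) and was kept out of the values of Ifit3. Its mean was 5.14 ± 0.80 (SD, n = 4) at 1 month and 5.48 ± 0.90, 5.35 ± 1.02, 5.30 ± 0.76 and 4.35 ± 0.88 at 2, 4, 6 and 10 months. Signal from the 2 genes cannot be told apart there.

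Within ages, some pairs of the 9 genes varied together across the 20 arrays. The highest correlations, after each age's mean was taken off, were 0.896 for Oasl2 with Irf9 and 0.881 for Irf9 with Gbp3. Stat2 and Irf9, the ISGF3 subunits, had 0.801 over all arrays and 0.469 within ages. Stat2 with Irgm1 had -0.189 over all arrays and 0.224 within ages. These values are descriptions of arrays that share mice and processing.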
